A study of Mus musculus with 6 samples.

Results

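TRBV19 and TRBV20 are neighbouring V gene segments of the mouse T cell receptor (TCR) β locus, and their rearranged chains were followed in P2+CD4+ T cells from lymph nodes (LN). The members are all productive TRB contigs whose V gene was called as TRBV19 or TRBV20, whatever else the cell carried. They made up 183 of the 1119 productive TRB contigs in the 3 datasets, 90 with TRBV19 and 93 with TRBV20. Of these, 164 were the β chain of a cell with a paired α chain, out of 970 such cells, and they fell into 107 of the 691 clonotypes. A clonotype here is the set of cells whose α and β chains were alike in V gene, in J gene and in every base of the CDR3, and it is called expanded when it was found in more than 1 cell.

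A TCR β chain is assembled in the thymus by joining a V, a D and a J segment, with bases trimmed from the ends and others added without a template. The join encodes the third complementarity-determining region (CDR3), the loop that usually touches the peptide most, whereas the other loops are encoded by the V segment itself and largely face the MHC molecule. Cells that share the bases of both chains are therefore usually progeny of a single T cell, while a CDR3 of like residues with other bases usually comes from a separate rearrangement.

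The 3 datasets hold TCR sequences of single CD4+ T cells that bound a tetramer of the P2 peptide and the class II molecule I-Ab. P2 is an epitope of interphotoreceptor retinoid-binding protein (IRBP), an antigen of the retina. All mice were AireGW/+ Lyn-/- and 9 wk old, with a hypomorphic allele of Aire, which drives thymic expression of tissue antigens, and without the tyrosine kinase Lyn, and none of the datasets comes from mice with intact Aire and Lyn. Uveitis dataset 1 and uveitis dataset 2 came from mice with uveitis, inflammation of the uvea and retina, in pools of 7 and 8 mice, and the dataset without uveitis from 16 pooled mice without uveitis. Which uveitis dataset holds 7 mice is not settled. The mouse of origin of a cell cannot be told within a pool, so that a clonotype of many cells may stand for a single animal.

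Each pool counts as 1 sample, and with only 1 pool of mice without uveitis the conditions were compared without a test. The intervals in parentheses after percentages are exact (Clopper-Pearson) 95% binomial intervals, which cover counting error only and not how mice or pools vary. Intervals over cells also treat the cells of a clonotype as independent, which they are not. Likewise, clonotypes with the same β chain are not independent in its J gene, D segment and length. Uveitis datasets 1 and 2 and the dataset without uveitis held 176, 324 and 470 cells with both chains. All contigs of these datasets, whether from such cells or not, summed to 5302, 7439 and 21408 unique molecular identifiers (UMIs). The files hold no expression of CD4 or other marker genes, so that the labelled cell type could be checked only by its receptors. Contigs of γ or δ chains occurred in 6, 0 and 0 barcodes, contigs of immunoglobulin genes in 9, 0 and 0, and no cell carried an invariant α chain of NKT or MAIT cells. Uveitis dataset 2 and the dataset without uveitis shared 1 cell barcode, and it carried neither of the genes.

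In the GENCODE annotation of GRCm38, TRBV19 (ENSMUSG00000076475.2) lies at chr6:41178375-41179048 and TRBV20 (ENSMUSG00000076476.1) at chr6:41188273-41188977, both on the plus strand. They are the 15th and 16th of the 22 TRBV genes annotated as TR_V_gene, 9224 bases apart, with TRBV17 before and TRBV21 after them. Each has 2 exons, and the end of the last exon encodes the start of the CDR3. The germline bases from the conserved cysteine to the end of the segment are shown first, because TRBV20 gives 14 bases to a CDR3β and TRBV19 gives 16:
TRBV19 germline: tgtgccagcagtatag
TRBV20 germline: tgtggtgctaggga

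The CDR3β sequences on which the results below turn follow, 5′ to 3′ from the cysteine codon to the codon that closes the CDR3. Capitals mark the middle bases, those that match neither the germline V segment read from the 5′ end nor the germline J segment read from the 3′ end. Clonotypes are numbered by size within each gene and dataset. The first set shows the TRBV20 chains with TRBJ1-4 that were paired with TRAJ50, which recurred across datasets:
TRBV20 clonotype 1 of uveitis dataset 2, 7 cells: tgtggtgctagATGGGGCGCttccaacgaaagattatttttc
TRBV20 clonotype 4 of uveitis dataset 2, 3 cells: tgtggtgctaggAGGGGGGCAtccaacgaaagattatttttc
TRBV20 clonotype 6 of uveitis dataset 2, 2 cells: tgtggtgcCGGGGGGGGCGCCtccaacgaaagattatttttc
TRBV20 clonotype 8 of uveitis dataset 2, 1 cell: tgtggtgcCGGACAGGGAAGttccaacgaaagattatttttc
TRBV20 clonotype 3 without uveitis, 3 cells: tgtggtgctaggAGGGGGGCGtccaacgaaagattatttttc
TRBV20 clonotype 22 without uveitis, 1 cell: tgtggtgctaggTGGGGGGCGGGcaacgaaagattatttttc

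The second set shows the short TRBV20 chains with TRBJ2-2, which have few or no middle bases:
TRBV20 clonotype 2 of uveitis dataset 1, 1 cell: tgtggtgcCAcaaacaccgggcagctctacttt
TRBV20 clonotype 3 of uveitis dataset 2, 4 cells: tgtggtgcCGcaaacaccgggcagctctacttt
TRBV20 clonotype 16 of uveitis dataset 2, 1 cell: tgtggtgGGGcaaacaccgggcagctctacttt
TRBV20 clonotype 9 of uveitis dataset 2, 1 cell: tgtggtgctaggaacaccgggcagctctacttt
TRBV20 clonotype 6 without uveitis, 1 cell: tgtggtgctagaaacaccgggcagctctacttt

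The third set shows the longer TRBV20 chains with TRBJ2-2 that were paired with a shared CDR3α, and the pair of large TRBV19 clonotypes with TRBJ1-3:
TRBV20 clonotype 1 of uveitis dataset 1, 3 cells: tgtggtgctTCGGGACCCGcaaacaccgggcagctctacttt
TRBV20 clonotype 1 without uveitis, 7 cells: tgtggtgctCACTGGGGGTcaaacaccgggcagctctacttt
TRBV19 clonotype 1 of uveitis dataset 2, 16 cells: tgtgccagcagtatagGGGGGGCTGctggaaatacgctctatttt
TRBV19 clonotype 2 of uveitis dataset 2, 5 cells: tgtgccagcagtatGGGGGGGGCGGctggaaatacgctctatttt

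Neither gene was the most used in any dataset, and the shares of cells with and without uveitis had overlapping intervals for both of them. TRBV19 was carried by 12 of 176 cells in uveitis dataset 1, which is 6.82% (3.57 to 11.6%). In uveitis dataset 2, 29 of 324 cells carried it, 8.95% (6.08 to 12.6%), and without uveitis 35 of 470 cells, 7.45% (5.24 to 10.2%). The TRBV19 share without uveitis lay between those of the uveitis datasets, whose mean was 7.88% ± 1.51 (SD, n = 2 pools).

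TRBV20 was carried by 15 of 176 cells in uveitis dataset 1, 8.52% (4.85 to 13.7%). In uveitis dataset 2 it was carried by 37 of 324 cells, 11.4% (8.17 to 15.4%), and without uveitis by 36 of 470, 7.66% (5.42 to 10.4%). Both uveitis datasets were above the dataset without uveitis, with a mean of 9.97% ± 2.05 (SD, n = 2 pools), but all 3 intervals overlapped. By cells, TRBV20 held rank 4, rank 2 (tied with TRBV4) and rank 4 among the 20, 17 and 21 TRBV genes used in these datasets, and TRBV19 held ranks 7, 5 and 5. The most used genes were TRBV3 in uveitis dataset 1, TRBV31 in uveitis dataset 2 and TRBV13-2 without uveitis.

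Counted by distinct clonotypes, so that clone size has no weight, TRBV20 took a larger share in both uveitis datasets than without uveitis, and TRBV19 did not. TRBV20 made up 13 of 138 clonotypes in uveitis dataset 1, 9.42% (5.11 to 15.6%), 16 of 142 in uveitis dataset 2, 11.3% (6.58 to 17.7%), and 25 of 411 without uveitis, 6.08% (3.97 to 8.85%). The uveitis mean of 10.3% ± 1.31 (SD, n = 2 pools) was 4.26 percentage points above the dataset without uveitis. TRBV19 made up 11 clonotypes, 7.97% (4.05 to 13.8%), in uveitis dataset 1, 9 clonotypes, 6.34% (2.94 to 11.7%), in uveitis dataset 2, and 33 clonotypes, 8.03% (5.59 to 11.1%), without uveitis. Its uveitis mean of 7.15% ± 1.15 (SD, n = 2 pools) was lower than the share without uveitis by less than its own SD, and for both genes the intervals of the datasets overlapped. The gene whose shares of clonotypes over the 3 datasets were most like those of TRBV19 was TRBV5, at a Euclidean distance of 2.92 percentage points, then TRBV2 at 3.60, and for TRBV20 they were TRBV5 at 2.81 and TRBV3 at 4.74. A larger share in both uveitis datasets was not particular to TRBV20. TRBV5 had 8.70% and 9.15% against 7.79% without uveitis, and TRBV3 had 11.6% and 13.4% against 9.73%. TRBV2 had smaller shares with uveitis, 7.25% and 2.82% against 8.27%.

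**Figure D1:**
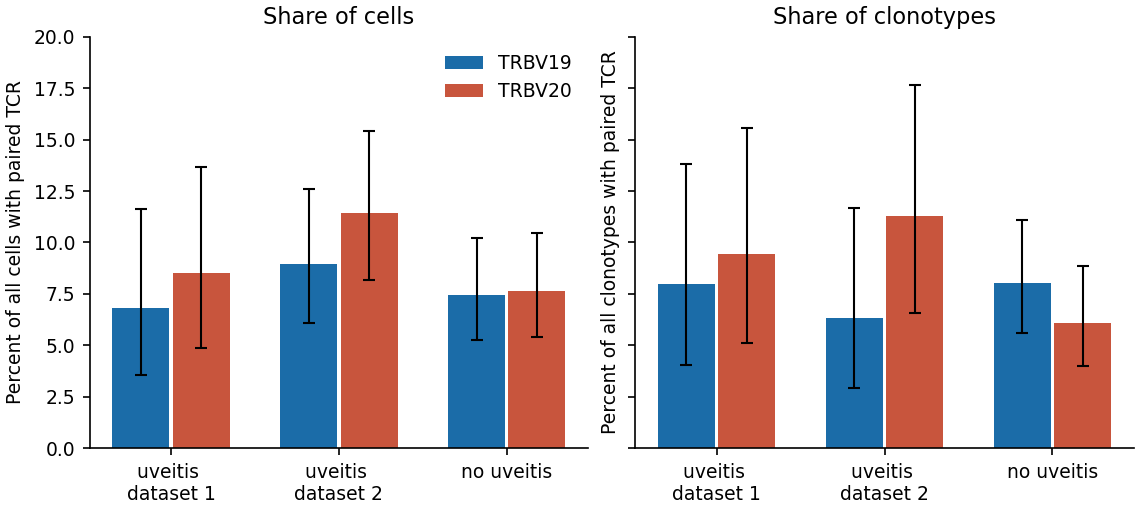
Share of all cells (left) and of all distinct clonotypes (right) with a paired TCR that used TRBV19 (blue) or TRBV20 (red) in each dataset, in percent, with exact 95% binomial intervals as error bars. TRBV20 stood at 9.42% and 11.3% of clonotypes in the uveitis datasets and at 6.08% without uveitis, with overlapping intervals, while TRBV19 stayed between 6.34% and 8.03%.

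For both genes, the share of cells in expanded clonotypes was highest in uveitis dataset 2. Of the TRBV19 cells, 2 of 12 belonged to an expanded clonotype in uveitis dataset 1, 16.7% (2.09 to 48.4%), 23 of 29 in uveitis dataset 2, 79.3% (60.3 to 92.0%), and 4 of 35 without uveitis, 11.4% (3.20 to 26.7%). Of the TRBV20 cells, 3 of 15 did in uveitis dataset 1, 20% (4.33 to 48.1%), 28 of 37 in uveitis dataset 2, 75.7% (58.8 to 88.2%), and 14 of 36 without uveitis, 38.9% (23.1 to 56.5%). In cells with any other TRBV gene the shares were 30.9%, 64.7% and 15.5% in the same order. Cells of a clonotype are not independent, so that these intervals are narrower than the true uncertainty. The share of TRBV20 cells without uveitis rested on 3 clonotypes of 7, 4 and 3 cells, whereas TRBV19 held only 2 expanded clonotypes there, each of 2 cells. With clonotypes defined by the β chain alone, the shares in uveitis dataset 1, uveitis dataset 2 and the dataset without uveitis were 58.3%, 86.2% and 14.3% for TRBV19 and 66.7%, 75.7% and 52.8% for TRBV20, so that uveitis dataset 1 moved by over 3 times.

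A single clonotype set the picture of TRBV19 in uveitis dataset 2. Its 16 cells made up 55.2% of the TRBV19 cells of that dataset and 4.94% (2.85 to 7.90%) of all its cells, and the next clonotypes held 5 and 2 cells. TRBV20 cells of that dataset were spread over 7 expanded clonotypes, of 7, 7, 4, 3, 3, 2 and 2 cells, and the largest held 18.9% of them. In uveitis dataset 1 the largest clonotypes held 2 cells with TRBV19 and 3 cells with TRBV20.

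**Figure D2:**
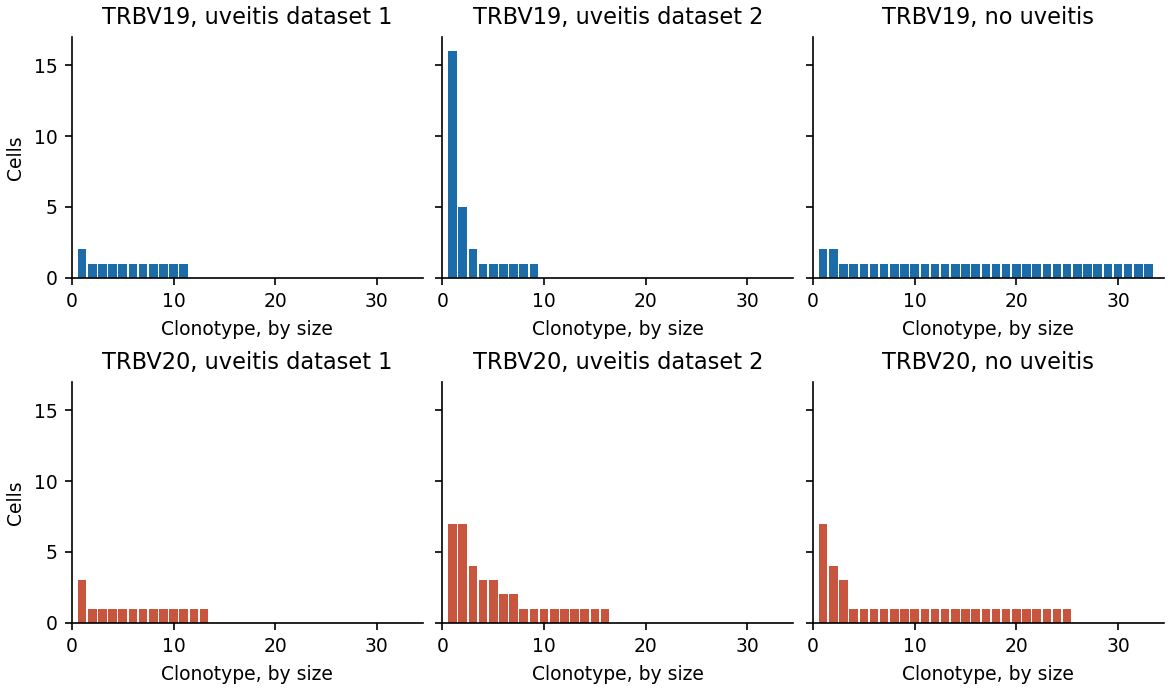
Cells per clonotype, ordered by size from the left, for TRBV19 (top row, blue) and TRBV20 (bottom row, red) in each dataset. The TRBV19 clonotype of 16 cells in uveitis dataset 2 stands alone, whereas TRBV20 has 7 clonotypes of more than 1 cell in that dataset and 3 without uveitis.

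The J segments most used with each gene differed from dataset to dataset. The β locus holds a pair of D-J-C clusters, and TRBJ1 and TRBJ2 genes belong to the first and the second of them. With TRBV19, TRBJ1-3 was used by 21 cells in 2 clonotypes of uveitis dataset 2, by 5 cells in 5 clonotypes without uveitis and by 0 cells of uveitis dataset 1. TRBJ2-7 was its most used partner without uveitis, in 12 cells and 11 clonotypes, and was used with TRBV19 by 0 cells in either uveitis dataset. In uveitis dataset 1 TRBJ2-5 led, with 4 cells in 4 clonotypes. With the other TRBV genes TRBJ2-7 was the most used in every dataset. It was in 44 of 149 cells of uveitis dataset 1, 66 of 258 of uveitis dataset 2 and 64 of 399 without uveitis. TRBJ1-3 was used by 7, 40 and 16 of these cells.

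TRBV20 used TRBJ2-2 in all 3 datasets, in 4, 6 and 9 cells from 2, 3 and 3 clonotypes. TRBJ1-4 was joined to TRBV20 in 1 cell of uveitis dataset 1, in 14 cells (5 clonotypes) of uveitis dataset 2 and in 6 cells (4 clonotypes) without uveitis. Of the 149, 258 and 399 cells with other TRBV genes, 5, 16 and 23 used TRBJ2-2 and 5, 2 and 30 used TRBJ1-4. The 7 TRBV20 cells with TRBJ2-3 in uveitis dataset 2 were a single clonotype. By clonotypes, TRBJ2 genes were used with TRBV20 in 12 of 13, 92.3% (64.0 to 99.8%), in 9 of 16, 56.3% (29.9 to 80.2%), and in 14 of 25, 56.0% (34.9 to 75.6%), and with TRBV19 in 63.6%, 66.7% and 66.7%. Other TRBV genes used TRBJ2 in 76.3%, 77.8% and 64.9% of clonotypes, and the TRBV20 value of uveitis dataset 1 was above and that of uveitis dataset 2 below them, with both intervals holding the value of the other genes.

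**Figure D3:**
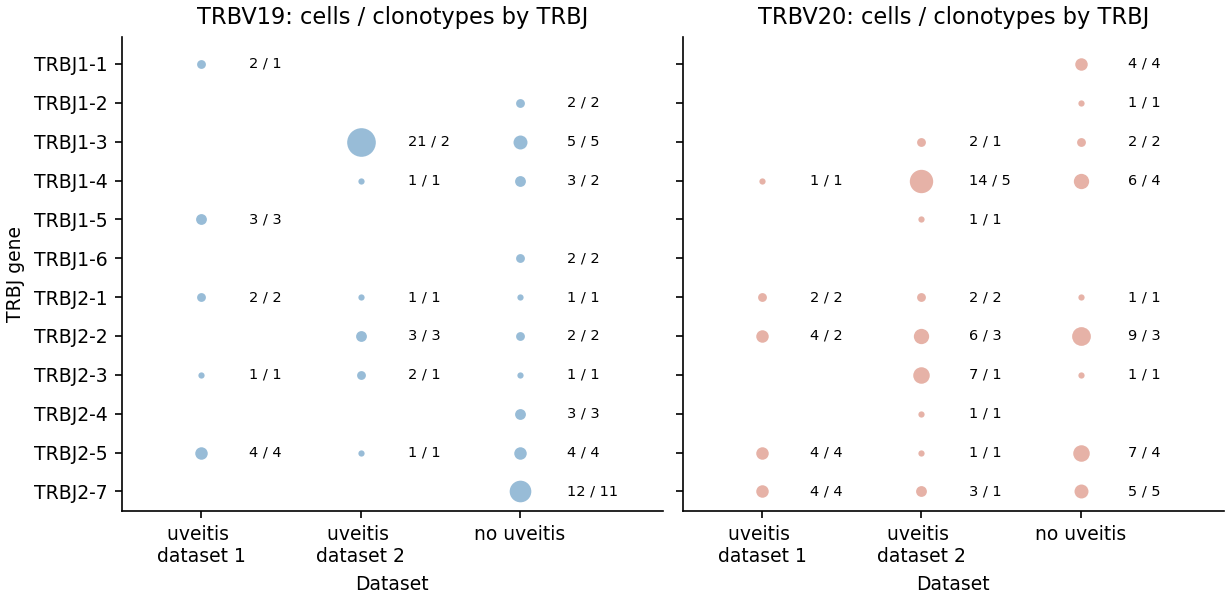
TRBJ genes (rows) joined to TRBV19 (left) and TRBV20 (right) in each dataset (columns), where the area of a point is proportional to the number of cells and the printed pair gives cells / distinct clonotypes. TRBV19 with TRBJ1-3 (21 cells in 2 clonotypes) and TRBV20 with TRBJ1-4 (14 cells in 5 clonotypes) stand out in uveitis dataset 2.

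The CDR3β of TRBV20 chains was short in every dataset. Over clonotypes, its mean length was 13 ± 1 residues (SD over 13 clonotypes) in uveitis dataset 1, 12.8 ± 1.22 (16 clonotypes) in uveitis dataset 2 and 12.7 ± 1.10 (25 clonotypes) without uveitis. The corresponding means were 14.6 ± 1.03, 14.4 ± 1.81 and 13.9 ± 1.56 residues for TRBV19 and 14.3, 14.1 and 13.8 for the other TRBV genes. TRBV20 was thus the shorter in 3 of 3 datasets, and 0 of its 54 clonotypes had more than 14 residues, against 23 of 53 with TRBV19 and 212 of 584 with other genes. Each gene's length differed between datasets by less than its SD. A β chain found with several α chains was counted in each of its clonotypes. By bases, the different TRBV20 chains numbered 9, 16 and 22 in uveitis dataset 1, uveitis dataset 2 and the dataset without uveitis. Those with TRBV19 numbered 8, 8 and 32. The same holds for the clonotype counts of TRBJ genes above and of middle bases and D segments below.

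The bases between the germline ends were also few with TRBV20. It had a mean of 6.77, 8.63 and 7.12 middle bases per clonotype in uveitis dataset 1, uveitis dataset 2 and the dataset without uveitis, against 12.2, 10.7 and 10.1 with TRBV19 and 10.8, 10.9 and 9.67 with other genes. The middle bases come from the D segment and from bases added at the joins. Cell Ranger named no D segment in 8 of 13, 7 of 16 and 12 of 25 TRBV20 clonotypes, or 61.5% (31.6 to 86.1%), 43.8% (19.8 to 70.1%) and 48.0% (27.8 to 68.7%). With TRBV19 it named none in 9.09%, 33.3% and 21.2%, and with the other genes in 26.3%, 23.1% and 23.8%. A D segment of few bases cannot be named, so that the absence of a name does not show the absence of the segment.

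**Figure D4:**
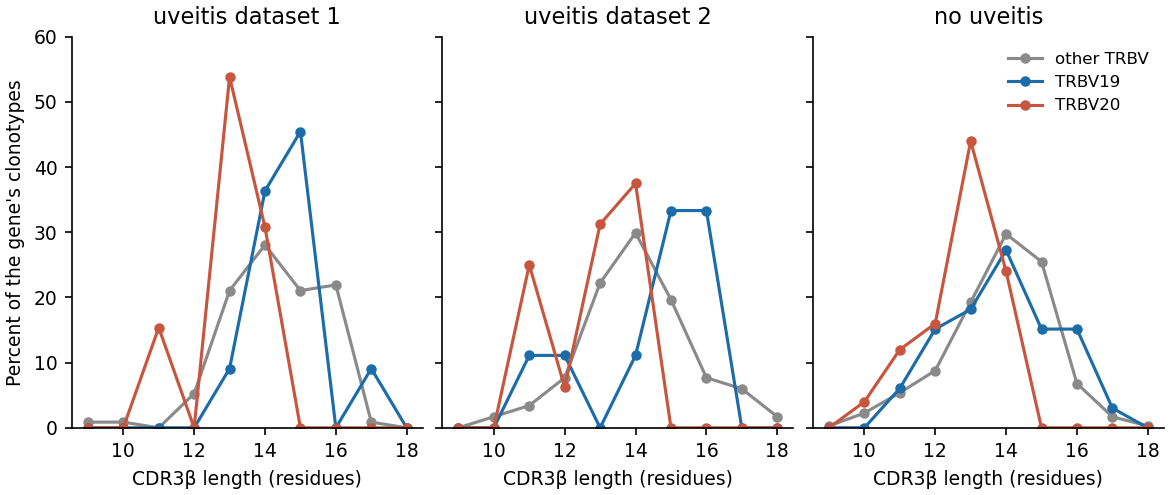
Distribution of CDR3β length in residues (x axis) as a percentage of each gene's distinct clonotypes (y axis) in the 3 datasets, for TRBV19 (blue), TRBV20 (red) and all other TRBV genes together (grey). No TRBV20 clonotype exceeds 14 residues in any panel, and both other curves extend to 16 residues or more.

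TRBV20 joined to TRBJ1-4 was found with TRAJ50 in a group of related receptors. In uveitis dataset 2, all 13 cells with TRAJ50, in 4 of 4 clonotypes, carried TRBV20 with TRBJ1-4, which is 100% (75.3 to 100% by cells, 39.8 to 100% by clonotypes). Without uveitis, 4 of 8 TRAJ50 cells did, 50.0% (15.7 to 84.3%), in 2 of 6 clonotypes. In uveitis dataset 1, 0 of 4 TRAJ50 cells did, which with 4 cells leaves a share of up to 60.2% possible. Read the other way, 13 of the 14 TRBV20-TRBJ1-4 cells of uveitis dataset 2 and 4 of the 6 without uveitis had TRAJ50. The pairing was picked out of these same cells, so the counts describe it and test nothing. Cells of a clonotype share both chains, so that the intervals by cells are narrower than the true uncertainty.

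The 6 clonotypes of this group carried 5 different CDR3β by residues, each 14 residues long, and used the α genes TRAV13D-1 and TRAV13-1 once each and TRAV4-4-DV10 and TRAV13-2 in 2 clonotypes each. Substitutions are given with the residue or base of the first-named sequence, its position counted from 1 at the start of the CDR3, and that of the second. From clonotype 1 of uveitis dataset 2 to clonotype 3 without uveitis, the CDR3β differed by W5R and the CDR3α by L3A. From the same clonotype to clonotype 22 without uveitis, they differed by S8G and L3V. Their β contigs rested on 4 to 49 UMIs per cell in uveitis dataset 2 and 5 to 18 without uveitis, and no cell of the group held a second productive β chain, while 1 and 3 of them held a second productive α chain.

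Clonotype 4 of uveitis dataset 2 and clonotype 3 without uveitis, each of 3 cells, had the same V genes and the same CDR3 residues in both chains. Their bases differed at 1 position in each chain, A21G in the CDR3β and G9T in the CDR3α, the last capital of the CDR3β shown above and the capital of the first CDR3α shown here:
CDR3α of TRBV20 clonotype 4 of uveitis dataset 2: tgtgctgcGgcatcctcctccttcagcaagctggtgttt
CDR3α of TRBV20 clonotype 3 without uveitis: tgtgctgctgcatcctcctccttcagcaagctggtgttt
By V genes and residues this was 1 of 3 clonotypes found in more than 1 dataset, out of 683 with all TRBV genes, and 0 of 691 clonotypes were found in more than 1 dataset by bases. The β chain of clonotype 3 without uveitis, with identical bases, also occurred there with TRAV14-1 and TRAJ45 in a further cell. The CDR3α residues of clonotype 1 of uveitis dataset 2 also occurred in 1 cell of uveitis dataset 1, with TRAV9N-3, TRBV3 and TRBJ1-3.

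**Figure D5:**
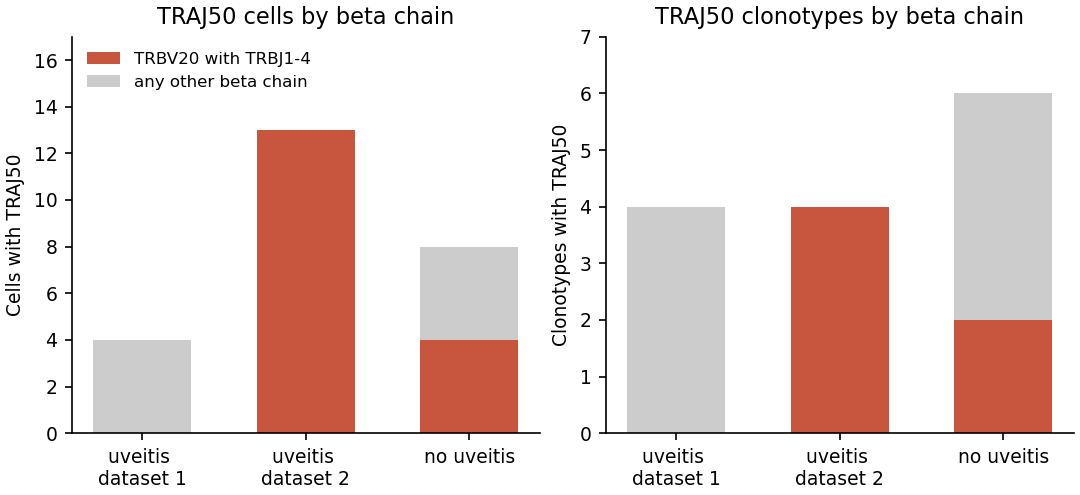
Cells (left) and distinct clonotypes (right) with TRAJ50 in each dataset, split into those whose β chain was TRBV20 with TRBJ1-4 (red) and those with any other β chain (grey). The red part is 0 of 4 cells in uveitis dataset 1, 13 of 13 in uveitis dataset 2 and 4 of 8 without uveitis.

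TRBV20 with TRBJ2-2 recurred with TRAV9-2 in both conditions. The largest TRBV20 clonotype of uveitis dataset 1 (3 cells) and the largest without uveitis (7 cells) both paired it with TRAV9-2 and TRAJ31. Their CDR3α had the same residues and differed at 1 base, T15C, while their CDR3β differed at 4 residues, S4H, G5W, P6G and A7S. These CDR3α were:
CDR3α of TRBV20 clonotype 1 of uveitis dataset 1: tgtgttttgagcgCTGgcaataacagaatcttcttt
CDR3α of TRBV20 clonotype 1 without uveitis: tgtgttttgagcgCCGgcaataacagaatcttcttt
TRAJ31 was thus the partner of 3 of the 4 cells with TRBV20 and TRBJ2-2 in uveitis dataset 1 and of 7 of the 9 without uveitis, and of 0 of 6 in uveitis dataset 2. By clonotypes these were 1 of 2, 1 of 3 and 0 of 3. Read the other way, 3 of 21 TRAJ31 cells in uveitis dataset 1, 0 of 113 in uveitis dataset 2 and 7 of 30 without uveitis had this β combination. It was also picked out of these same cells, so the counts only describe it.

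The short TRBV20 chains of 11 residues with TRBJ2-2 had similar CDR3β, while their α chains used TRAV9-2 with TRAJ37, TRAV6N-6 with TRAJ13 or TRAV3D-3 with TRAJ5. Clonotype 9 of uveitis dataset 2 and clonotype 6 without uveitis had the same CDR3β residues with 0 middle bases, and their bases differed by G12A. Both used TRAV9-2 with TRAJ37, and their CDR3α differed by A6G. Clonotype 2 of uveitis dataset 1, with TRAV3D-3 and TRAJ5, was 1 residue from both of them (T4R) and 1 residue from clonotype 3 of uveitis dataset 2 (T4A). Within uveitis dataset 2, clonotypes 3 and 16 differed by A3G in the CDR3β and had the same CDR3α residues with TRAV6N-6 and TRAJ13.

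Similar CDR3β between datasets were counted for each gene, as a description without a test. Comparing the uveitis datasets with each other, then each of them in order with mice without uveitis, 2 of 144, 2 of 198 and 3 of 352 pairs of different TRBV20 CDR3β were 1 residue apart. The last of these comparisons also held 2 identical CDR3β. With TRBV19, 0 of 64, 0 of 256 and 0 of 256 pairs were 1 residue apart and none was identical. Pairs of other chains that shared a TRBV gene gave 4 of 734, 2 of 2386 and 1 of 2534, and a further 1, 0 and 2 pairs were identical. Within the datasets the counts were 0 of 36, 3 of 120 and 0 of 231 pairs with TRBV20 and 0 of 28, 1 of 28 and 1 of 496 with TRBV19, for uveitis dataset 1, uveitis dataset 2 and mice without uveitis. Only CDR3β of equal length can be 1 substitution apart, and pairs of equal length numbered 46, 61 and 95 with TRBV20, 10, 51 and 38 with TRBV19, and 130, 518 and 579 with the other genes.

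The large TRBV19 clonotypes of uveitis dataset 2 resembled each other in their β chain and not in their α chain. Clonotypes 1 and 2, of 16 and 5 cells, both used TRBJ1-3, and their CDR3β differed by I5M, with 2 different bases (A15G and T24G). Clonotype 1 paired with TRAV9-4 and TRAJ31, and clonotype 2 with TRAV13-1 and TRAJ38. The CDR3α residues of clonotype 1 recurred with other β genes in the same dataset, in 34 cells with TRBV12-2, in 5, 2 and 1 cells of 3 clonotypes with TRBV4, and in 1 cell each with TRBV20 and TRBV3. They were also found in 2 cells with TRBV26 in uveitis dataset 1. The same CDR3α bases were found under the names TRAV9-4, TRAV9-1 and TRAV9D-1 in different clonotypes. The CDR3α alone therefore does not tell these genes apart, and whether the gene named is right was not checked.

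TRAJ31 was used by 16 of the 29 TRBV19 cells of uveitis dataset 2, all in 1 clonotype, by 1 of 12 in uveitis dataset 1 and by 3 of 35 without uveitis. With TRBV20 it was used by 4 of 15, 1 of 37 and 9 of 36 cells. With the other TRBV genes TRAJ31 was used by 16 of 149 (10.7%), 96 of 258 (37.2%) and 18 of 399 cells (4.51%), where it led in uveitis dataset 2. These came from 12, 16 and 16 clonotypes. TRAJ15 and TRAJ13 came next to TRAJ50 with TRBV20 in uveitis dataset 2, in 9 and 5 cells from 2 clonotypes each, and TRAJ37 came next to TRAJ31 without uveitis, in 5 cells from 2 clonotypes. No TRAV or TRAJ gene was used with TRBV19 by more than 4 of its clonotypes in any dataset.

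In uveitis dataset 1, chains of both genes recurred in several combinations. Of the different β chains by bases, 2 of 8 with TRBV19 and 3 of 9 with TRBV20 were found with more than 1 α chain, or 25% (3.19 to 65.1%) and 33.3% (7.49 to 70.1%). In uveitis dataset 2 these were 1 of 8 and 0 of 16, and without uveitis 1 of 32 and 3 of 22. The other TRBV genes gave 18.7%, 10.7% and 3.86% in the same order, so that uveitis dataset 1 was the highest for all of them. A CDR3α with TRAV3D-3 and TRAJ5 was found there with identical bases in 3 TRBV20 clonotypes, joined to TRBJ2-2, TRBJ1-4 and TRBJ2-7, each in 1 cell. This dataset was also the one with γ or δ chain contigs in 6 barcodes and immunoglobulin contigs in 9. Non-productive contigs were 259 of its 676, against 52 of 800 in uveitis dataset 2 and 565 of 1648 without uveitis. The part of any of these contigs in the recurrence was not tested.

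TRBV19 chains rested on fewer UMIs than the rest in both uveitis datasets. A TRBV19 chain rested on a median of 7, 8 and 15 UMIs per cell in uveitis dataset 1, uveitis dataset 2 and the dataset without uveitis, a TRBV20 chain on 11, 12 and 14, and a chain of another TRBV gene on 12, 10 and 16. Of the paired cells, 2 with TRBV19 in uveitis dataset 2 had a β chain of 1 UMI and none with TRBV20 had one. A second productive TRB was found in 1 paired cell of each gene in each dataset. TRBV19 was itself the second chain, with fewer UMIs, in 0, 1 and 4 contigs, and TRBV20 in none. Member contigs without a productive α chain numbered 2, 3 and 4 with TRBV19 and 0, 3 and 2 with TRBV20.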

How the data were processed

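TCR libraries of P2+CD4+ T cells from 2 uveitis pools and 1 pool without uveitis were analysed, and the matching mRNA samples were not analysed here. Reads had been assembled with Cell Ranger against GRCm38 (mm10), per the submitters' processing notes. The authors deposited, for each contig, whole-number counts of reads and UMIs without normalization, with gene names and CDR3.

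Cells with a productive TRA and TRB contig were kept, with the contig of most UMIs per chain. No doublets were removed. Members and lists were chosen with earlier results of these data known. Germline segments and positions came from GENCODE vM21 transcripts (GRCm38), which held 33 of 33 TRB and 79 of 79 member TRA genes. It may differ from the reference behind the contigs. Names were drawn from both genes, their 3 most used partner genes per dataset, and expanded, recurring or similar clonotypes. They also came from the 2 TRBV genes with most similar shares and the most used TRBV gene. Not every partner gene or clonotype of these lists is named. Steps were tested on simulated data.

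Alternatives were cells without TRA, cells limited to a single TRA and a single TRB, a minimum of 2 UMIs for every contig, every TRB, clonotypes by residues, by β chain or by Cell Ranger, cells in place of clonotypes, each uveitis dataset left out, and other rules of similarity. The scripts ran in Python 3.11.15 with scipy 1.17.1, matplotlib 3.10.9, pandas 2.3.3 and numpy 2.4.6.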

Additional observations from a re-analysis of the deposited data

Results flagged for a closer look

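Non-productive contigs, whose V genes no comparison above used, also held member genes. In uveitis dataset 2, 2 of 52 non-productive contigs were TRBV19 or TRBV20, which is 3.85% (0.469 to 13.2%), above the 0.354% (0.0429 to 1.27%) of the dataset without uveitis, where 2 of 565 were. Uveitis dataset 1 had 0 of 259. These totals hold non-productive contigs of every chain and not of TRB alone. The shares therefore depend on the mix of chains, and cannot be set beside the shares among productive TRB chains. The intervals of the first pair overlap, and each value rests on 2 contigs.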

How the results depend on the processing

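Of 186 recomputed values over 12 alternative settings, 181 stayed within the limits set for the reported value, and 5 moved beyond them. Shares within a dataset were judged against their exact interval, and pair counts by a fixed ratio. Uveitis means and CDR3β lengths were judged against their SD, which is a spread and not an error of the mean. With 2 pools, each pool always lies within the SD of their mean. The 4 values for each uveitis dataset left out therefore could not move. With only cells of 1 TRA and 1 TRB, the uveitis mean share of clonotypes with TRBV19 was 5.58%. With clonotypes defined by the β chain alone, the expanded share in uveitis dataset 1 rose to 58.3% for TRBV19 and 66.7% for TRBV20, since β chains found with several α chains then count as 1 clonotype. Counted by cells, TRBJ2 was used by 24.1% of TRBV19 chains in uveitis dataset 2, where 1 clonotype with TRBJ1-3 holds 16 of 29 cells. With any TRBV in the other dataset, 1 TRBV19 CDR3β had a neighbour 1 residue apart. Without uveitis dataset 2 the mean share of cells was 6.82% for TRBV19 and 8.52% for TRBV20, and without uveitis dataset 1 it was 8.95% and 11.4%. The main limits are the single pool without uveitis, the 9 to 33 clonotypes per gene and dataset, and the unknown mouse of each cell. By an approximate rule, 3 divided by the number of cells, a count of 0 cells allows a share of up to 1.70%, 0.926% and 0.638% of the cells in uveitis dataset 1, uveitis dataset 2 and the dataset without uveitis. The exact intervals used above are wider, and reach 2.07% and 1.13% in uveitis datasets 1 and 2.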
